A study of Rattus norvegicus with 12 samples.

Results

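The Zfp genes of the rat are a large set of loci named for the zinc fingers of their proteins. Genes with a protein-coding symbol of Zfp followed by a digit were chosen by their mean level over the 12 libraries, at least 1 CPM (a gene's counts per 1e6 counts of the library). The mean runs over 9 libraries of cells on a surface and 3 of cells in suspension, so differences between groups can affect that choice. Zfp37 and Zfp518a, at 1.11 and 1.06 CPM in suspension and lower on each surface, were left out. So was Zfp93, at 1.06 CPM on fibronectin, 1.10 CPM on laminin and 0.818 CPM in suspension. The RefSeq table lists 380 such symbols, the files hold 177 of them, and 152 met the level and are described here. All 152 also passed the filter on low counts, among 10020 genes tested of 16924 in the files. The members just inside the level were Zfp707 at 1.03 CPM, Zfp819 at 1.10 CPM and Zfp483 at 1.12 CPM. Those just outside were Zfp93 at 0.967 CPM, Zfp7 at 0.916 CPM and Zfp423 at 0.796 CPM.

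The cells were rat cardiac progenitor cells grown from a single clone, and RNA sequencing was made of 3 libraries in each of 4 groups. The attached groups were cells on fibronectin, on laminin and on dishes with no coating, and their reference was cells in suspension. All cells had been grown with 10% fetal bovine serum, leukemia inhibitory factor, basic fibroblast growth factor, erythropoietin and glutathione. The labels give every library the same protocol of sparse seeding and 2 h in 0.1% serum, and do not say how the cells in suspension were kept. The replicate number equals the batch in the labels, so libraries were paired by it. Because the line is 1 clone, p-values measure the spread between batches of that line and not between animals.

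Most Zfp proteins carry fingers of the C2H2 kind, which hold a zinc ion and read bases of DNA. Many also carry a KRAB domain, which recruits the corepressor Trim28 and, through it, the histone methyltransferase Setdb1, and such proteins are best known for silencing transposable elements and imprinted genes. The Zfp36 family is built otherwise: its CCCH fingers bind AU-rich stretches of messenger RNA and bring the Ccr4-Not deadenylase to them, which shortens the life of transcripts of growth factors, cytokines and early response genes. Roles given below come from work in mouse and human unless another species is named.

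Total counts ran from 15875160 to 20852160 per library. Mesenchymal marker genes summed to between 6703 and 7181 CPM in the attached libraries and between 5835 and 6521 CPM in suspension. Of these, Vim averaged 5125 CPM, Col1a1 1164.5 CPM, Col3a1 350 CPM, Pdgfrb 72.2 CPM and Thy1 0.0842 CPM. Log2 differences from suspension on fibronectin, laminin and no coating were 0.25, 0.26 and 0.17 for Vim. For Col1a1 they were -0.06, -0.30 and -0.02. Of the cardiac markers, Gata4 averaged 88.4 CPM, Gata6 64.2 CPM, Tnnt2 4.32 CPM and Kit 3.09 CPM. Nkx2-5, Isl1 and Myh7 had no count in any library, and Tbx5, Myh6, Actc1 and Ryr2 averaged 0.0599 CPM or less. Of the smooth muscle markers, Tagln averaged 196 CPM, Myh11 8.17 CPM and Cnn1 0.140 CPM. Summed cardiomyocyte markers reached 6.52 CPM at most in attached libraries and 2.11 CPM at most in suspension, and their part in the results was not tested. In bulk RNA, a smaller number of cells with a transcript and less of it per cell cannot be told apart.

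The members took between 0.495% and 0.616% of the counts in the attached libraries and between 0.627% and 0.645% in suspension. The lowest 3 shares belonged to replicate 3 of each surface, at 0.525% on fibronectin, 0.508% on laminin and 0.495% with no coating. The median member averaged 19.2 CPM. CPM is not scaled by transcript length, so the order among genes depends on length as well as on abundance. At 100 CPM or more stood 12 members, and 40 were under 10 CPM. Zfp36l2 averaged 605 CPM and held 10.3% of all member counts, followed by Zfp275 at 277 CPM, Zfp91 at 247 CPM, Zfp207 at 187 CPM and Zfp330 at 182 CPM. After them came Zfp385a at 147 CPM, Zfp367 at 136 CPM, Zfp703 at 123 CPM, Zfp384 at 118 CPM and Zfp638 at 115 CPM.

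Each surface was compared with suspension to find which zinc finger genes differed 2 h after plating. A gene was called at an adjusted p under 0.05 (edgeR's quasi-likelihood test, Benjamini-Hochberg over all 10020 genes, which holds for every adjusted p below). On fibronectin 10 members were called higher and 3 lower, which is 6.58% and 1.97% of the members, against 6.61% and 3.06% of all genes tested. On laminin 12 were called higher and 15 lower, or 7.89% and 9.87% of the members, against 12.1% and 6.96% of all genes. With no coating 9 were called higher and 5 lower, or 5.92% and 3.29%, against 8.48% and 4.10% of all genes. The share of higher members on fibronectin was thus that of the background. The 3 comparisons use the same 3 suspension libraries.

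In this fit, which has no block for the pairing, 28 members were called on at least 1 surface and 124 on none. The shares of all genes called on at least 1 surface or on every surface were not counted. No member was called in opposite directions on different surfaces. Higher on every surface were Zfp18, Zfp385a, Zfp394, Zfp503, Zfp622, Zfp697, Zfp703 and Zfp954. Lower on every surface were Zfp14 and Zfp275. Among the calls of this fit, Zfp800 on laminin was the only one past 2-fold. Fitted log2 changes of members reached -1.45 on fibronectin, -1.33 on laminin and -1.42 with no coating, and these lowest values were not called.

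The replicate number was also fitted as a block, which adds 1 shift per batch, taken as equal in all 4 groups. For replicate 3 the shift was not equal. Its median log2 difference from replicates 1 and 2 over members was -0.16, -0.22 and -0.28 on fibronectin, laminin and no coating. In suspension it was -0.01. With this block the calls grew mostly on the lower side. There were then 19 higher and 25 lower members on fibronectin, 21 and 48 on laminin and 21 and 47 with no coating. On at least 1 surface 81 members were called, and on all 3 surfaces 14 were higher and 23 lower. The shares of all genes called on at least 1 surface or on all 3 surfaces were not counted. The same block fitted to only the 2 groups compared, a setting added after the data were seen, gave 13 higher and 21 lower on fibronectin, 4 and 6 on laminin and 2 and 0 with no coating. For that setting the share of all genes called was not counted. The block fit of all 4 groups called 16.6% of all genes higher and 12.1% lower on fibronectin, 22.4% and 20.8% on laminin, and 20.1% and 18.7% with no coating. Lower members made up, in that fit, 16.4%, 31.6% and 30.9% of the set in that order of surfaces. Over the 152 members the median log2 change without the block was -0.07 on fibronectin, -0.20 on laminin and -0.17 with no coating, against 0.00, -0.01 and 0.00 over all genes.

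**Figure D1:**
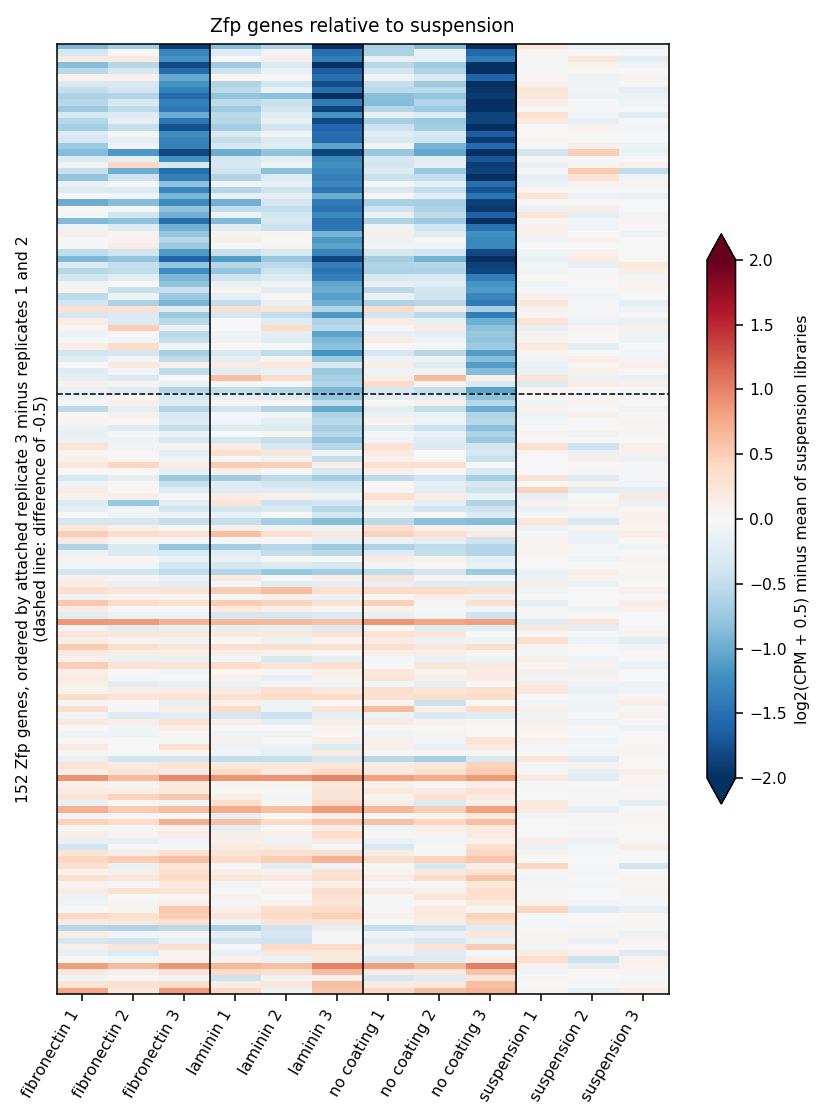
Each row is 1 of the 152 Zfp genes and each column 1 library; colour is log2(CPM + 0.5) minus the mean of the 3 suspension libraries, with colours ending at -2 and 2. Rows are ordered by the difference of attached replicate 3 from replicates 1 and 2, and the 56 rows above the dashed line are those under -0.5; their blue columns are replicate 3 of fibronectin, laminin and no coating.

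The promoters of 4 members that changed on every surface are printed to show what lies next to their start sites, 2 for genes that rose (Zfp697, Zfp503) and 2 for genes that fell (Zfp275, Zfp14). Each is the window of 300 bases around the start of the gene, 5′ to 3′ on the gene's strand, from RefSeq (build GRCr8, which is not the rn4 build of the files). Capitals mark matches on either strand to core motifs of 4 factors, chosen with earlier results of these data known: GGAATG for TEAD, the DNA-binding partner of YAP, TGGGAA for the Notch effector RBPJ, GCGTG for the aryl hydrocarbon receptor and TGANTCA for AP-1. The regions are chr2:188659044-188659343 (+) for Zfp697, chr15:2362200-2362499 (+) for Zfp503, chrX:156208664-156208963 (+) for Zfp275 and chr1:94413018-94413317 (-) for Zfp14.
Zfp697: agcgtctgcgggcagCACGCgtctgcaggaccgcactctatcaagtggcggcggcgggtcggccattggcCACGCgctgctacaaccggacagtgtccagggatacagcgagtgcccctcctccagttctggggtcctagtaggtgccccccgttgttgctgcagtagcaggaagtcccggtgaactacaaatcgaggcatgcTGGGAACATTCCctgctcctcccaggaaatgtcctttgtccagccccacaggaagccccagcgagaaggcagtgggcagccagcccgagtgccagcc
Zfp503: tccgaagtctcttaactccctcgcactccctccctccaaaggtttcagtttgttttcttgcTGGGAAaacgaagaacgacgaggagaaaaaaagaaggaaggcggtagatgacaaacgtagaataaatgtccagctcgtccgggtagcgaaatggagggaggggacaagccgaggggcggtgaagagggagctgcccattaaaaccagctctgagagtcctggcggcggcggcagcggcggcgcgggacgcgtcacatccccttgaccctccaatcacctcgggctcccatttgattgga
Zfp275: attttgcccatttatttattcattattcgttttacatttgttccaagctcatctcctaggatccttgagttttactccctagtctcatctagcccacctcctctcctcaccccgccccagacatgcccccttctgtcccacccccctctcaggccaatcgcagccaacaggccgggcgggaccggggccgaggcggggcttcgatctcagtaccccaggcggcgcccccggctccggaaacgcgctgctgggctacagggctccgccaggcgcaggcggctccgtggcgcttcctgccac
Zfp14: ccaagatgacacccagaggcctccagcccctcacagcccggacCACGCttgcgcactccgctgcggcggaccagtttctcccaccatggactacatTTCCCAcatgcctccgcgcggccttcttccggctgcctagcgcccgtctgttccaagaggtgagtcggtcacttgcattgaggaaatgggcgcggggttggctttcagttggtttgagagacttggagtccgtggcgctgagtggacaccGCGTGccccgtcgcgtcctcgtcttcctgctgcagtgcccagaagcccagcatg

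Zfp697 held 1 TEAD, 1 RBPJ and 2 aryl hydrocarbon receptor matches, with the RBPJ and TEAD letters side by side and not overlapping. Zfp503 held 1 RBPJ match, Zfp14 held 1 RBPJ and 2 aryl hydrocarbon receptor matches, and none of the 4 motifs is in the Zfp275 window. A promoter was listed for 127 of the 152 members. Of these, 10.2% held the TEAD motif, against 13.9% of all 27457 promoters, and 26.0% held the RBPJ motif, against 25.1%. The aryl hydrocarbon receptor motif was in 44.9% of member promoters and 31.1% of all, and the AP-1 motif in 4.72% and 7.33%. The motif GCGTG contains a CpG, and the median member promoter had 18 CpG dinucleotides against 7 in all promoters. Matches describe the letters only and do not show binding.

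A list of genes with RNA or ribosome roles held 13 tested members. Of these, Zfp385a and Zfp622 were called higher on all 3 surfaces and none was called lower. The list is not complete: Zfp697, described below as RNA-binding, is not on it. Of all genes, 6.61%, 12.1% and 8.48% were called higher on fibronectin, laminin and no coating. With the replicate block 4, 3 and 4 of the 13 were higher and 1 was lower on each surface. The block fit called 16.6%, 22.4% and 20.1% of all genes higher in that order of surfaces, and 12.1%, 20.8% and 18.7% lower. Zfp385a (Entrez 685474), known as Hzf, binds RNA and is a cofactor of p53. It had 169, 149 and 175 CPM in replicates 1 to 3 on fibronectin, 149, 144 and 188 CPM on laminin and 170, 149 and 191 CPM with no coating, against 100, 85.5 and 99.1 CPM in suspension. All 9 attached libraries lay above all suspension libraries. The log2 change was 0.79 ± 0.13 on fibronectin (SE, adjusted p = 0.00304), 0.76 ± 0.13 on laminin (adjusted p = 0.003) and 0.84 ± 0.13 with no coating (adjusted p = 0.00187). Within batches 1, 2 and 3 it was 0.75, 0.80 and 0.82 on fibronectin, 0.57, 0.75 and 0.93 on laminin and 0.76, 0.80 and 0.95 with no coating.

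Zfp622 (294846), whose protein takes part in maturation of the large ribosomal subunit in the cytoplasm, had 30.5, 27.1 and 24.5 CPM on fibronectin, 26.3, 26.2 and 25.8 CPM on laminin and 26.4, 24.6 and 27.1 CPM with no coating, against 21.97, 21.0 and 20.1 CPM in suspension. The change was 0.38 ± 0.09 on fibronectin (adjusted p = 0.0232). On laminin and with no coating it was 0.31 ± 0.09, and leaving out any 1 of the 6 libraries ended these calls (adjusted p up to 0.122 and 0.155). On fibronectin the call ended without fibronectin 1 or 2 or suspension 2 or 3 (adjusted p up to 0.103). Zfp598, which marks stalled ribosomes with ubiquitin, was between 90.0 and 117 CPM in attached libraries and between 97.6 and 105 CPM in suspension, with log2 differences of -0.03 ± 0.09, -0.01 ± 0.09 and 0.09 ± 0.09 on fibronectin, laminin and no coating. Its attached and suspension values overlapped on every surface.

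The Zfp36 family held no call. Zfp36 (79426), which encodes tristetraprolin, had 55.3, 41.9 and 47.3 CPM on fibronectin, 55.8, 40.9 and 51.8 CPM on laminin and 67.2, 47.0 and 56.2 CPM with no coating, against 47.1, 40.6 and 41.9 CPM in suspension. Replicate 1 was the highest library in each of the 4 groups. With no coating the difference was 0.39 ± 0.16 (adjusted p = 0.116), and with the replicate block 0.38 (adjusted p = 0.00431), with differences of 0.51, 0.21 and 0.42 in the 3 batches. On fibronectin it was 0.16 ± 0.16 and on laminin 0.19 ± 0.16.

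Zfp36l1 (29344), a family member with the same kind of RNA target, had 49.6, 49.4 and 40.9 CPM on fibronectin, 61.2, 56.6 and 45.0 CPM on laminin and 53.8, 47.7 and 37.3 CPM with no coating, against 49.8, 43.4 and 51.1 CPM in suspension. Replicate 3 was the lowest on each surface and the highest in suspension. On laminin its difference from suspension was 0.30 and 0.38 in batches 1 and 2 and -0.18 in batch 3. Over all batches the difference was 0.17 ± 0.15 (adjusted p = 0.423), and without batch 3 it was 0.34 ± 0.10 (adjusted p = 0.0492).

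Zfp36l2 (298765), the member with the most counts, had 678, 624 and 566 CPM on fibronectin, 632, 547 and 542 CPM on laminin and 738, 628 and 562 CPM with no coating, against 539, 605 and 609 CPM in suspension. The groups overlapped, and the log2 differences of 0.09 ± 0.11, -0.03 ± 0.11 and 0.14 ± 0.11 had adjusted p of 0.617, 0.879 and 0.398. Of 16 tested genes listed for messenger RNA decay or as regulators of this family, none was called on any surface. The list holds deadenylase subunits such as Cnot1 and Cnot9, and also Elavl1, Hnrnpd and Mapkapk2. With the block, 1 was higher and 2 lower on fibronectin, 1 and 5 on laminin and 2 and 2 with no coating. That fit called 16.6%, 22.4% and 20.1% of all genes higher in that order of surfaces, and 12.1%, 20.8% and 18.7% lower. Mapkapk2 was the 1 higher on fibronectin and on laminin, and Elavl1 and Hnrnpd were the 2 lower on fibronectin.

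**Figure D2:**
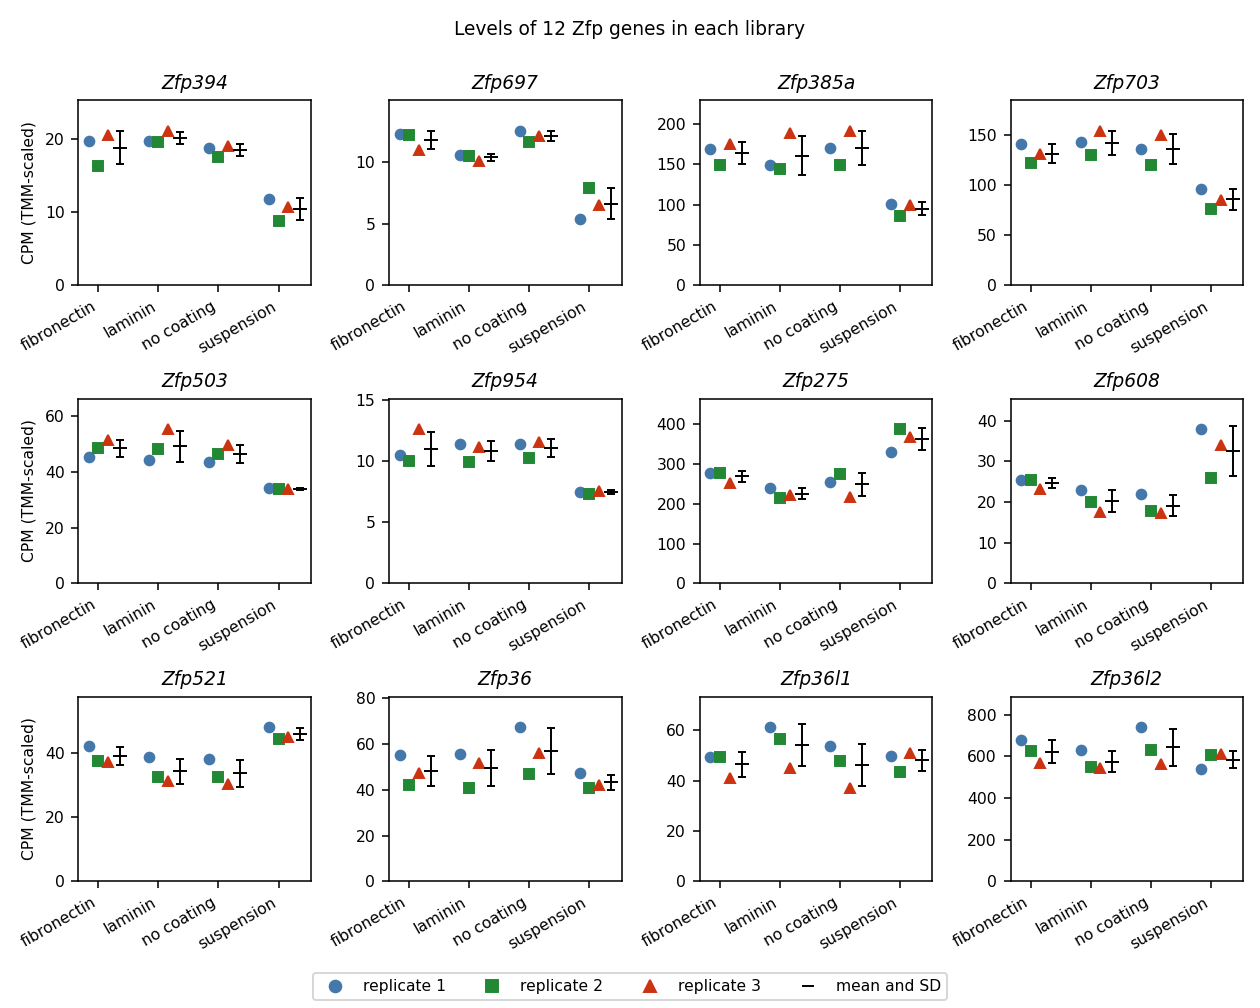
Points are the TMM-scaled CPM of 12 Zfp genes in each library, with groups along the horizontal axis and the replicate number as colour and shape; the bar is mean and SD of 3 libraries. The 6 genes from Zfp394 to Zfp954 have every attached library above every suspension library, Zfp275, Zfp608 and Zfp521 have every attached library below, and the Zfp36 family overlaps.

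The pair of NET family corepressor genes rose together. Zfp703 (680717), the counterpart of a gene amplified in human breast tumours, had 140, 122 and 131 CPM on fibronectin, 143, 130 and 153 CPM on laminin and 136, 120 and 150 CPM with no coating, against 96.3, 75.9 and 84.5 CPM in suspension. The changes were 0.62 ± 0.11 on fibronectin (adjusted p = 0.00664), 0.73 ± 0.11 on laminin (adjusted p = 0.00192) and 0.66 ± 0.11 with no coating (adjusted p = 0.00415). Each surface was above suspension in each of the 3 batches.

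Zfp503 (305687), of the same family and needed for development of the striatum in mouse, had 45.4, 48.4 and 51.4 CPM on fibronectin, 44.4, 48.1 and 55.2 CPM on laminin and 43.4, 46.3 and 49.6 CPM with no coating, against 34.2, 33.7 and 33.7 CPM in suspension. The suspension libraries lay close to each other, while the attached ones were spread more widely. The changes were 0.52 ± 0.09, 0.54 ± 0.09 and 0.46 ± 0.09, with adjusted p of 0.00631, 0.0036 and 0.0109 for fibronectin, laminin and no coating.

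Zfp394 (252860), whose human counterpart lowers the activity of AP-1 reporters when overexpressed, had the largest rise on laminin of any member. It stood at 19.6, 16.2 and 20.5 CPM on fibronectin, 19.7, 19.5 and 21.0 CPM on laminin and 18.7, 17.5 and 19.0 CPM with no coating, against 11.7, 8.80 and 10.6 CPM in suspension. The change was 0.85 ± 0.12 on fibronectin (adjusted p = 0.00146), 0.95 ± 0.12 on laminin (adjusted p = 0.000547) and 0.82 ± 0.12 with no coating (adjusted p = 0.00159).

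Zfp697 (295310), an RNA-binding regulator of muscle remodelling in mouse, had 12.2, 12.2 and 10.9 CPM on fibronectin, 10.6, 10.5 and 10.0 CPM on laminin and 12.5, 11.6 and 12.1 CPM with no coating, against 5.40, 7.90 and 6.48 CPM in suspension. Its suspension libraries were more spread than its attached ones, and the difference on fibronectin was 1.16 in batch 1, 0.61 in batch 2 and 0.74 in batch 3. The changes were 0.83 ± 0.12 on fibronectin, 0.65 ± 0.12 on laminin and 0.87 ± 0.12 with no coating (adjusted p = 0.00206, 0.00644 and 0.00134).

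Zfp954 (308320) had 10.5, 10.0 and 12.6 CPM on fibronectin, 11.5, 9.91 and 11.2 CPM on laminin and 11.4, 10.2 and 11.6 CPM with no coating, against 7.52, 7.34 and 7.59 CPM in suspension. Attached and suspension values did not overlap. Its changes of 0.56 ± 0.11, 0.53 ± 0.11 and 0.57 ± 0.11 had adjusted p of 0.0105, 0.00941 and 0.00896. Without batch 3 the call on fibronectin ended (0.46 ± 0.14, adjusted p = 0.0779). Zfp394, Zfp697, Zfp385a, Zfp703, Zfp503 and Zfp954 were called on all 3 surfaces whichever single library was left out.

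Smaller rises were those of Zfp18, Zfp133, Zfp414, Zfp46, Zfp672 and Zfp787. Zfp18 (303226) had 24.4, 22.3 and 22.9 CPM on fibronectin, 22.7, 23.9 and 24.0 CPM on laminin and 22.8, 23.7 and 23.8 CPM with no coating, against 18.5, 17.7 and 19.0 CPM in suspension, a change of 0.34 ± 0.07, 0.36 ± 0.07 and 0.35 ± 0.07 (adjusted p = 0.0157, 0.00787 and 0.011). Its call on fibronectin ended without fibronectin 1 or 3 or suspension 2 (adjusted p up to 0.0731), and with no coating without suspension 2 (adjusted p = 0.0537). Zfp133 (499900), whose human counterpart is a KRAB repressor, changed by 0.49 ± 0.09 on laminin (adjusted p = 0.00447) and 0.38 ± 0.09 with no coating (adjusted p = 0.0182), and its value on fibronectin was 0.30 ± 0.09 (adjusted p = 0.0571). Its difference on laminin was 0.60 and 0.62 in batches 1 and 2, against 0.23 in batch 3. The call with no coating ended without no coating 2 or suspension 1 or 2 (adjusted p up to 0.0645).

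Zfp414 rose on fibronectin by 0.42 ± 0.11 (adjusted p = 0.0324) and on laminin by 0.38 ± 0.11 (adjusted p = 0.0329). Zfp672 rose on fibronectin by 0.43 ± 0.11 (adjusted p = 0.0297), Zfp46 on laminin by 0.40 ± 0.12 (adjusted p = 0.0367) and Zfp787 on laminin by 0.45 ± 0.13 (adjusted p = 0.0335). Each of these calls ended in 5 of the 6 fits with 1 library left out, among them all that left out a suspension library, with adjusted p up to 0.131, 0.106, 0.126, 0.121 and 0.118 in the order given.

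On the lower side Zfp275 (293849) stood out by its level. It had 278, 278 and 254 CPM on fibronectin, 241, 214 and 223 CPM on laminin and 255, 274 and 217 CPM with no coating, against 332, 388 and 369 CPM in suspension. Every attached library was below every suspension library, and laminin was lowest by its mean of 226 ± 13.5 CPM (SD, n = 3). The change was -0.43 ± 0.10 on fibronectin (adjusted p = 0.0196), -0.68 ± 0.10 on laminin (adjusted p = 0.00108) and -0.54 ± 0.10 with no coating (adjusted p = 0.00535). The calls on laminin and no coating held without any 1 library, and that on fibronectin ended without fibronectin 1 or 3 or suspension 2 or 3 (adjusted p up to 0.0876).

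Zfp14 (499124) had 3.41, 4.42 and 2.94 CPM on fibronectin, 3.18, 3.59 and 3.14 CPM on laminin and 3.39, 3.71 and 3.46 CPM with no coating, against 5.70, 5.55 and 5.21 CPM in suspension. The groups did not overlap at this low level. The changes were -0.61 ± 0.14, -0.73 ± 0.15 and -0.64 ± 0.15 (adjusted p = 0.0252, 0.0079 and 0.0186). On fibronectin 5 of 6 fits without 1 library lost the call, all but the one without fibronectin 2 (adjusted p up to 0.102), and with no coating those without no coating 3, suspension 1 or suspension 2 did (adjusted p up to 0.0607).

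Zfp608 and Zfp521 encode large nuclear regulators. Zfp608 (307296), a repressor of recombination genes in mouse thymocytes, had 25.5, 25.4 and 23.2 CPM on fibronectin, 22.9, 19.96 and 17.5 CPM on laminin and 22.1, 17.8 and 17.3 CPM with no coating, against 37.8, 25.8 and 34.0 CPM in suspension. On laminin it changed by -0.69 ± 0.15 (adjusted p = 0.0121) and with no coating by -0.77 ± 0.15 (adjusted p = 0.00956), and neither call was lost by leaving out 1 library. The laminin call ended without batch 3 (adjusted p = 0.0558), and the no coating call in a fit of only the 2 groups (adjusted p = 0.0506). On fibronectin the value was -0.40 ± 0.15 (adjusted p = 0.12), with almost no difference in batch 2 (-0.03). Its paralog Zfp609, a partner of the cohesin loader, was called on no surface, with log2 differences of 0.04 ± 0.09, 0.01 ± 0.09 and 0.18 ± 0.09.

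Zfp521 (307579), which binds and inhibits the transcription factor Ebf1, had 42.2, 37.5 and 37.1 CPM on fibronectin, 38.7, 32.5 and 31.3 CPM on laminin and 38.1, 32.3 and 30.2 CPM with no coating, against 47.8, 44.4 and 44.8 CPM in suspension. All 9 attached libraries were below suspension. The log2 differences were -0.23 ± 0.11 (adjusted p = 0.202), -0.42 ± 0.11 (adjusted p = 0.0244) and -0.44 ± 0.11 (adjusted p = 0.0252). The laminin call was lost in every fit without 1 library but that without laminin 1, and the no coating call in every one but that without no coating 1 (adjusted p up to 0.0819 and 0.0873). With the block all 3 surfaces were called (adjusted p = 0.0226, 0.00117 and 0.00116).

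Ebf1 itself, at 3.37 CPM, was the only Ebf gene tested. Its log2 difference was -0.38 ± 0.19 on fibronectin (adjusted p = 0.229), -0.78 ± 0.20 on laminin (adjusted p = 0.021) and -0.80 ± 0.20 with no coating (adjusted p = 0.0262). Zfp521 and Ebf1 were both called lower on laminin and with no coating, and a link between the 2 results was not tested. Zfp423, another Ebf-binding protein, was below the level for membership.

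Zfp710 (293044) had 11.7, 11.4 and 11.9 CPM on fibronectin, 11.1, 13.2 and 15.5 CPM on laminin and 12.6, 13.1 and 15.1 CPM with no coating, against 17.3, 17.3 and 18.1 CPM in suspension. Fibronectin was the lowest and the tightest of the groups. The log2 differences were -0.59 ± 0.12 (adjusted p = 0.0117), -0.40 ± 0.12 (adjusted p = 0.0372) and -0.37 ± 0.12 (adjusted p = 0.0624). The fibronectin call ended without suspension 3 (adjusted p = 0.054), and the laminin call in every fit without 1 library but that without laminin 3 (adjusted p up to 0.115). Zfp775 was called lower on laminin at -0.48 ± 0.15 (adjusted p = 0.0497) and with no coating at -0.55 ± 0.15 (adjusted p = 0.0395). Its laminin call ended without any 1 library but suspension 2, and its no coating call without no coating 1 or 2 or suspension 1 or 3 (adjusted p up to 0.156 and 0.118).

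The 9 members called lower on laminin alone were Zfp142, Zfp202, Zfp280b, Zfp365, Zfp382, Zfp516, Zfp692, Zfp800 and Zfp84. None of the 9 was called between laminin and another surface, so a difference between surfaces is not shown for them. Zfp800 (500057), whose human counterpart restrains enteroendocrine genes in the gut, had 21.4, 23.1 and 12.9 CPM on fibronectin, 18.2, 23.5 and 10.9 CPM on laminin and 24.5, 20.5 and 8.93 CPM with no coating, against 36.4, 44.3 and 40.003 CPM in suspension. Replicate 3 was by far the lowest on each surface, and in suspension it was in the middle. On laminin the change was -1.20 ± 0.36 (adjusted p = 0.0411), and the values on fibronectin and no coating were nearly as large, at -1.08 ± 0.36 (adjusted p = 0.0825) and -1.16 ± 0.36 (adjusted p = 0.0577). Without batch 3 all 3 were called, at -0.86 ± 0.15, -0.95 ± 0.15 and -0.85 ± 0.15 (adjusted p = 0.0119, 0.0049 and 0.0106), and with the block as well (adjusted p = 0.00819, 0.00336 and 0.0047). The laminin call ended in 5 of 6 fits without 1 library, all but that without laminin 2 (adjusted p up to 0.119).

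Zfp382 changed on laminin by -0.69 ± 0.20 (adjusted p = 0.034), Zfp692 by -0.68 ± 0.17 (adjusted p = 0.0195), Zfp202 by -0.67 ± 0.21 (adjusted p = 0.0438) and Zfp84 by -0.54 ± 0.16 (adjusted p = 0.0423). Zfp365, linked to genome stability, changed by -0.42 ± 0.11 (adjusted p = 0.0262) and Zfp516, a promoter of brown fat in mouse, by -0.32 ± 0.09 (adjusted p = 0.0307). Zfp280b and Zfp142 changed by -0.33 ± 0.09 and -0.32 ± 0.09 (adjusted p = 0.0312 and 0.0265). Each of these 8 calls was lost when 1 library was left out, in 3 to 6 of the 6 fits, and suspension 3 was among the libraries for every one of them, with adjusted p up to 0.133. In Zfp382 and Zfp202, replicate 3 on laminin differed from replicates 1 and 2 by -0.40 and -0.54.

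Replicate 3 stood apart on the surfaces. The log2 difference of replicate 3 from the mean of replicates 1 and 2 had a median over members of -0.16 on fibronectin, -0.22 on laminin and -0.28 with no coating, and -0.01 in suspension. Over all genes tested the medians were 0.02, 0.03, 0.02 and 0.01. Averaged over the 3 surfaces, 56 of 152 members (36.8%) were under -0.5, against 15.6% of all genes, and 39 members were under -0.5 on each surface separately. Replicate 3 was the lowest library on all 3 surfaces in 75 members (49.3%, against 26.8% of all genes) and the highest on all 3 in 24 (15.8%, against 24.5%). The labels set replicate 3 apart by its batch alone, the file headers carry 1 date for each replicate number, and what the batch stands for is not given in the sources used here.

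**Figure D3:**
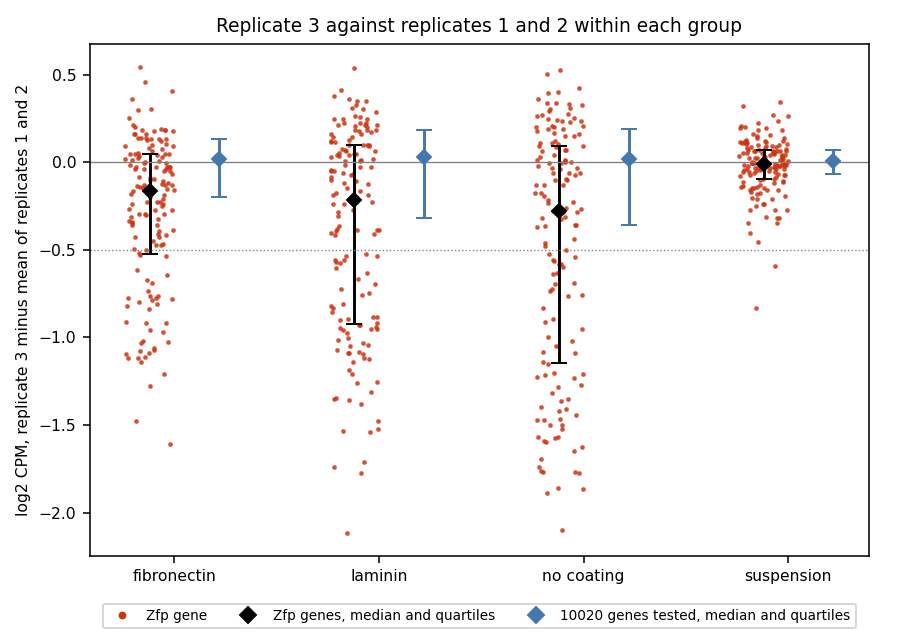
Each point is a Zfp gene; the vertical axis is log2 CPM in replicate 3 minus the mean of replicates 1 and 2 of the same group, diamonds and bars are medians and quartiles of the members (black) and of the 10020 genes tested (blue), and the dotted line is at -0.5. The members reach below -1 on each surface, while in suspension only 2 lie under -0.5.

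The 5 members with the lowest difference of attached replicate 3 were Zfp386 at -1.71, Zfp455l1 and Zfp667 at -1.61, Zfp638 at -1.49 and Zfp68 at -1.36. Zfp386 (25165) had 14.5, 16.6 and 6.99 CPM on fibronectin, 14.9, 17.6 and 3.65 CPM on laminin and 17.1, 14.7 and 4.29 CPM with no coating, against 31.9, 24.9 and 25.3 CPM in suspension. The attached libraries of replicates 1 and 2 were already below suspension. Against suspension the value was -1.18 ± 0.55 on laminin (adjusted p = 0.151), and without batch 3 it was -0.81 ± 0.15 (adjusted p = 0.0102). On fibronectin and no coating the values without batch 3 were -0.87 ± 0.16 and -0.84 ± 0.16 (adjusted p = 0.0133 and 0.0123).

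Zfp638 (312491), known as NP220, silences unintegrated retroviral DNA together with the HUSH complex. It had 99.7, 122 and 51.5 CPM on fibronectin, 110, 148 and 45.7 CPM on laminin and 123, 110 and 31.3 CPM with no coating, against 184, 187 and 171 CPM in suspension. All attached libraries were below suspension, and within batch 3 the difference was between -1.73 and -2.45. The values of -0.99 ± 0.51, -0.84 ± 0.51 and -1.04 ± 0.51 missed the threshold (adjusted p = 0.239, 0.253 and 0.184), and with the block they were called (adjusted p = 0.023, 0.023 and 0.0131). Without batch 3 they were -0.75 ± 0.14, -0.53 ± 0.14 and -0.68 ± 0.14 (adjusted p = 0.0157, 0.0345 and 0.0198).

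Zfp667 (308326), called Mipu1 in rat for its rise in heart after ischaemic preconditioning, behaved otherwise. It had 3.71, 3.79 and 1.16 CPM on fibronectin, 3.18, 3.59 and 0.954 CPM on laminin and 2.90, 2.82 and 0.939 CPM with no coating, against 3.17, 3.98 and 2.77 CPM in suspension. Replicates 1 and 2 overlapped with suspension, and replicate 3 alone was low. Without batch 3 the values were 0.06 ± 0.20, -0.08 ± 0.20 and -0.33 ± 0.20 (adjusted p = 0.876, 0.816 and 0.329).

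Zfp68 (304337) had 42.0, 49.6 and 21.0 CPM on fibronectin, 46.1, 56.4 and 19.5 CPM on laminin and 47.5, 40.7 and 14.4 CPM with no coating, against 60.9, 63.7 and 61.8 CPM in suspension. Without batch 3 it was called with no coating alone (-0.50 ± 0.13, adjusted p = 0.039). Zfp455l1, at 1.98 CPM, was called in none of these fits, and it may share reads with its near copy Zfp455. Among members with known roles, Zfp148, which binds GC-rich promoters, stood at 55.7, 48.6 and 34.5 CPM in replicate 3 of fibronectin, laminin and no coating, against 122 CPM in suspension 3. In replicates 1 and 2 it was between 85.9 and 98.015 CPM on the surfaces and at 116 and 130 CPM in suspension. Without batch 3 Zfp148 was called lower on each surface, at -0.46 ± 0.09, -0.39 ± 0.09 and -0.36 ± 0.09 (adjusted p = 0.0155, 0.0176 and 0.0337).

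The genes for imprint maintenance differed in this respect, a pair chosen after its values were seen. Zfp445 (301076) had 97.8, 109 and 48.8 CPM on fibronectin, 88.6, 101 and 41.6 CPM on laminin and 99.2, 93.7 and 32.5 CPM with no coating, against 129, 120 and 122 CPM in suspension. Zfp57 (361783), which acts on the same imprinted regions, had 28.2, 25.2 and 25.2 CPM on fibronectin, 28.9, 26.6 and 25.7 CPM on laminin and 26.2, 24.4 and 24.3 CPM with no coating, against 25.4, 23.4 and 26.5 CPM in suspension. Its replicate 3 differed by -0.08 on the surfaces, against -1.28 for Zfp445. Zfp384, which in rat binds the focal adhesion adaptor p130Cas, was called on no surface, at levels between 111 and 125 CPM in attached libraries and between 117 and 123 CPM in suspension.

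At the other end, Zfp707 was 0.40 higher in attached replicate 3, Zfp574 and Zfp219 were 0.30 higher, Zfp787 0.26 and Zfp385a 0.25. Zfp219 (305848), a transcription factor, had 37.4, 38.4 and 38.2 CPM on fibronectin, 29.1, 36.7 and 41.7 CPM on laminin and 31.0, 33.5 and 46.4 CPM with no coating, against 40.4, 39.8 and 38.5 CPM in suspension. On laminin and no coating its difference from suspension was negative in batches 1 and 2 and positive in batch 3. Zfp707, at 1.03 CPM, rested on the fewest counts of any member, 219 in all 12 libraries.

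**Figure D4:**
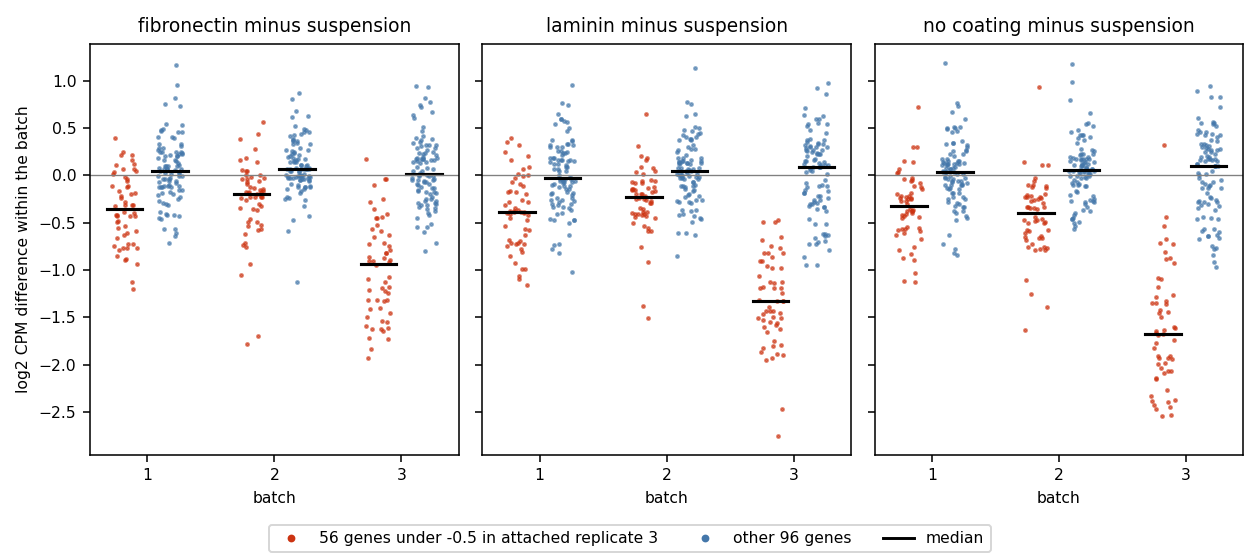
Each point is the log2 CPM of a Zfp gene on a surface minus that in suspension of the same batch, for the 56 genes under -0.5 in attached replicate 3 (red) and the other 96 (blue), with black lines for medians. The split was made on the attached libraries themselves, so the drop of the red points in batch 3 describes it; in batches 1 and 2 the red medians lie between -0.40 and -0.19 and the blue ones between -0.03 and 0.06.

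The split into 56 and 96 members used the attached libraries of all 3 batches, so the values of both sets are given as a description and no difference between them is read from it. For the 56, the median difference from suspension was -0.36, -0.19 and -0.93 in batches 1, 2 and 3 on fibronectin, -0.39, -0.23 and -1.33 on laminin, and -0.33, -0.40 and -1.68 with no coating. In both batches 1 and 2, 39 of the 56 were lower on fibronectin, 41 on laminin and 46 with no coating. The other 96 had medians between -0.03 and 0.10 in every batch and on every surface.

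Without batch 3 the number of higher members was 10, 12 and 9, and the number of lower members 13, 26 and 23. In that fit 4.30% of all genes were higher and 4.95% lower on fibronectin, 8.55% and 10.3% on laminin, and 5.17% and 6.81% with no coating. Of the members called higher with all batches, 7 of 10, 10 of 12 and 8 of 9 were also called higher without batch 3. Of those called lower, 2 of 3, 11 of 15 and 2 of 5 were. Lower without batch 3 on every surface, and called on none or on 1 with it, were Zfp148, Zfp280d, Zfp292, Zfp317, Zfp386, Zfp52, Zfp612, Zfp638 and Zfp800.

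Members lower than suspension in all 3 batches numbered 63 on fibronectin (41.4%, against 30.5% of all genes), 64 on laminin (42.1%, against 30.7%) and 67 with no coating (44.1%, against 29.1%). Members higher in all 3 numbered 35 (23.0%, against 32.2% of all genes), 32 (21.1%, against 31.8%) and 33 (21.7%, against 31.3%). Counted by groups that do not overlap, 31 members were higher and 43 lower on fibronectin, with 21.8% and 20.9% of all genes. On laminin 25 were higher and 52 lower, with 23.5% and 22.5% of all genes, and with no coating 26 and 55, with 21.4% and 21.1%.

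Other zinc finger genes were set beside the members for replicate 3. Of 35 Zbtb genes tested, 12 were under -0.5 in attached replicate 3 (34.3%), of 15 Zc3h genes 7 (46.7%), of 6 Zscan and Zkscan genes 2, and both Znf genes. Of the 13 tested genes of the KRAB corepressor complex and its partners, Pphln1 and Morc2, of the HUSH pathway, were called lower on laminin, at -0.44 ± 0.11 and -0.34 ± 0.09 (adjusted p = 0.0189 and 0.0323), 2 of 13 where 6.96% of all genes were. None of the 13 was called on fibronectin or no coating, and with the block 4 were lower on each surface, where 12.1%, 20.8% and 18.7% of all genes were. Trim28 was at 449 CPM, with log2 differences of 0.08 ± 0.13, 0.11 ± 0.13 and 0.15 ± 0.13, and was 0.28 higher in attached replicate 3. The HUSH subunit Mphosph8 had a difference of -1.31 there.

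Members lay on 21 chromosomes in GRCr8, with 39 on chromosome 1, 17 on chromosome 10 and 1 on chromosome X. Counting members with no other protein-coding gene of the RefSeq table between them, 26 lay in 11 runs of neighbours. Of these 26, 10 were under -0.5 in attached replicate 3, where 56 of all 152 members (36.8%) were. Zfp52, Zfp53 and Zfp54 are near copies of each other, as are Zfp709 and Zfp709l1, and reads may have been split between them.

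The surfaces were also compared with each other, since the study sets laminin, fibronectin and uncoated dishes side by side. No member was called in laminin against fibronectin, fibronectin against no coating or laminin against no coating (edgeR), where 0.150%, 0.180% and 0.00% of all genes were. At an unadjusted p under 0.05 there were 4, 3 and 1 members, and DESeq2 called none. With the replicate block none was called either, while 0.0399% of all genes were higher and 0.369% lower in laminin against fibronectin, 0.389% and 0.0798% in fibronectin against no coating, and 0.00% in laminin against no coating. The median member differed by -0.06, 0.06 and 0.01 in these comparisons.

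Zfp281 (305083), a regulator of the exit from pluripotency in mouse, was singled out after its values were seen. It had 40.03, 40.6 and 20.04 CPM on laminin, 56.9, 55.9 and 32.2 CPM on fibronectin and 42.7, 36.9 and 14.7 CPM with no coating, and 52.6, 61.3 and 56.7 CPM in suspension. Fibronectin was above the other surfaces in each batch. Laminin minus fibronectin was -0.51, -0.46 and -0.68 in batches 1, 2 and 3, and fibronectin minus no coating was 0.42, 0.60 and 1.12. Over all batches the differences were -0.53 ± 0.37 and 0.62 ± 0.37, neither of which was called, and with the block the adjusted p was 0.722 and 0.503. In a fit with the block and without batch 3, chosen after the data were seen, they were called (adjusted p = 0.0164 and 0.0198).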

How the data were processed

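The authors deposited whole-number read counts for each gene and library, under Entrez IDs per the file headers. Build rn4 is named in the submitters' processing notes. For the aligner, counting tool, annotation and strand setting, nothing is given in the sources used here. Of 16924 IDs, 16761 matched the RefSeq table (GRCr8), used for names, gene order and promoters.

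Counts were tested with edgeR 4.0.16 (R 4.3.3; glmQLFit, glmQLFTest, filterByExpr, TMM factors 0.962 to 1.03) in 1 model of the 4 groups without a block, with 8 residual degrees of freedom and Benjamini-Hochberg adjustment over 10020 genes. Per-library CPM are TMM-scaled. Within-batch and replicate 3 differences use log2 CPM with a prior count of 2. Replicates of a group differed by more than counting noise.

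The labels give same-numbered libraries 1 batch, so the numbers pair them. Deviations from group means correlated across members with a median of 0.449 over 18 same-batch pairs of libraries and -0.171 over 36 others. Over the 9 same-batch pairs with both libraries attached, the median was 0.827 and the lowest value 0.644. The lowest of all 18 was -0.02, in a pair of an attached and a suspension library. The block leaves 6 degrees of freedom.

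Alternatives were RLE or no scaling factors, no filter, DESeq2 1.42.0, the block, 2-group fits, leaving out batch 3 or 1 library, and a level of 2 CPM. Members, lists and rules were chosen with earlier results of these data known. Named are the Zfp36 family, the 10 largest rises and falls called per surface, the 10 highest CPM, the 3 on each side of the level, the 5 largest replicate 3 differences each way and, of the members with listed roles, a part; the others, and some results, are not reported here. All calls against suspension are named.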

Additional observations from a re-analysis of the deposited data

How the results depend on the processing

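Among the 54 calls of members against suspension, none reversed in the settings run. All 54 held with DESeq2 and with the replicate block, 53 with RLE scaling and with the block without batch 3, 49 without the filter, 45 with library sizes alone, 42 with only the 2 groups compared, 40 without batch 3 and 24 with the block and only the 2 groups. When 1 library was left out, 196 of 324 fits kept the call and 128 lost it. With the replicate block, which follows the pairing in the labels, 19, 21 and 21 members were higher and 25, 48 and 47 lower on fibronectin, laminin and no coating. DESeq2 gave 7 lower on fibronectin and 21 with no coating, fits of only the 2 groups 12 and 2, and fits without batch 3 13, 26 and 23 lower on the 3 surfaces. Of 2 settings added after the data were seen, the block with only the 2 groups gave 4 higher on laminin, 2 with no coating, and 21, 6 and 0 lower on the 3 surfaces; the block without batch 3 gave 17, 20 and 14 higher and 28, 48 and 43 lower. Between surfaces, Zfp281 was the 1 member called in laminin against fibronectin under both added settings and the 1 in fibronectin against no coating without batch 3. Fits with 2 groups have fewer samples, and the cause of the shifts was not tested in any setting. Leaving out 1 library gave 6 to 9 higher on fibronectin, 8 to 10 on laminin and 6 to 10 with no coating, and 0 to 3, 3 to 8 and 2 to 9 lower. It gave no call between surfaces. The lowest counts of lower members came without suspension 3 on fibronectin and laminin, and without suspension 1 with no coating. Median changes ran from -0.12 to -0.04 on fibronectin, -0.25 to -0.08 on laminin and -0.24 to -0.08 with no coating, nearest to 0 without replicate 3 of the surface. A level of 2 CPM for membership changed no count. Low members rest on few counts: Zfp707 had 219 in 12 libraries.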
